A study of Saccharomyces cerevisiae with 9 samples.

Results

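Yeast cells meet many kinds of stress with one shared programme of transcription. Its activators are the related zinc finger factors Msn2 and Msn4, which protein kinase A keeps in the cytoplasm while nutrients are plentiful and which enter the nucleus and bind stress response elements when cells are stressed or growth slows. Their targets include protective small proteins, enzymes against oxidants and aldehydes, glycerol enzymes, cell wall proteins and the enzymes of trehalose and glycogen. The genes followed here are 31 members of this programme outside the reserve carbohydrates, chosen by name from a list, out of 5449 budding yeast genes measured. The choice of these genes, and of the further lists below, was made with earlier results of these data known. All 31 were found on the array, each with 1 probe set.

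The arrays came from Saccharomyces cerevisiae grown in YPD broth, and the labels give no strain or genotype. Control cultures received ethanol, the solvent of the compound, at the volume used for the treated ones. The other cultures received bisphenol A (BPA, the monomer of polycarbonate plastics) at 50 mg/L or at 300 mg/L, and exposure lasted 180 min from mid-exponential phase in every group. Each group had 3 cultures with 1 array each, 9 arrays in all, and ethanol was present in every culture, so no array shows the genes without it. The replicates are labelled biological, but how the cultures were seeded is not given in the sources used here, so the p-values measure the spread between these cultures.

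Levels are log2 expression values as deposited. Changes are differences of group means on that scale with their standard errors (SE), so a difference of 1 is 2-fold, and a called gene has an adjusted p under 0.05 by limma with Benjamini-Hochberg adjustment over all 5449 genes. Values are relative to the other transcripts of an array, and in these bulk cultures fewer cells expressing a gene and less of its RNA per cell cannot be told apart. All 31 genes lay above the background set by fission yeast probe sets on every array.

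Replicate cultures differed in these genes more than in most others. The median SD of a member within its group was 0.28 among controls, 0.22 at 50 mg/L and 0.24 at 300 mg/L, where the median over all genes was 0.07, 0.13 and 0.08. The members moved together between cultures. Control replicate 1 had the highest value of its group for 28 of the 31 genes and for 34.9% of all genes, with a median deviation of 0.29 from the group mean. Control replicate 3 had the lowest for 22 members and for 41.1% of all genes, with a median deviation of -0.23. In the 50 mg/L group, replicate 1 was the highest for 27 members. At 300 mg/L, replicate 2 was the lowest for 28 members and replicate 3 the highest for 25, with median deviations of -0.21 and 0.22. The genes that were not highest in control replicate 1 were MSN2, MSN4 and NQM1. For HSP12, the membrane-associated small heat shock protein, the controls spanned 1.58, the widest range of any member, and for MSN2 they spanned 0.08, the narrowest. Ribosome assembly genes ran the other way in the same cultures: of 16 measured, 12 were lowest in control replicate 1 and 14 highest in control replicate 3, and 15 were lowest in replicate 3 at 300 mg/L. Their part in the changes of the members was not tested. Some results below are therefore also given without control replicate 1. For the other members the change without that array is not given, and it can differ from the one printed.

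**Figure D1:**
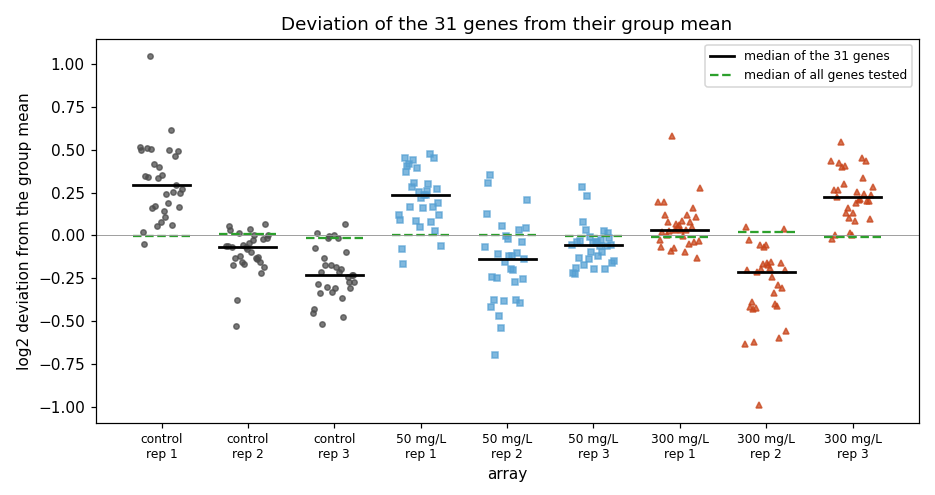
Deviation of each of the 31 genes from the mean of its own group (log2), by array, with black bars for the median of the 31 genes and green dashes for the median of all genes tested. The 31 genes sit high in control replicate 1, 50 mg/L replicate 1 and 300 mg/L replicate 3 (medians 0.29, 0.24 and 0.22). They sit low in control replicate 3 and 300 mg/L replicate 2 (-0.23 and -0.21), while the medians of all genes stay near 0.

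The first question was whether 300 mg/L BPA moved the general stress programme relative to ethanol alone. Among the 31 genes, 13 fell and 4 rose, and 14 did not pass the test. The 17 called make up 54.8% of the members, against 52.7% of all genes, so the share called was near the background. The direction was less even. Of the members 41.9% were called lower, against 25.2% of all genes, and 12.9% were called higher, against 27.5% of all genes. The split describes a list chosen with earlier results of these data known and is not a test of it. How uneven the split was depended on the setting. After another round of quantile normalization the members split into 15 lower and 2 higher, beside 1629 and 1300 of all genes. Without 300 mg/L replicate 2 they split into 11 lower and 7 higher, beside 1233 and 1316 of all genes. Array weights gave 13 lower and 9 higher, beside 1786 and 1817 of all genes. The median change of the 31 genes was -0.45, and that of all genes 0.01. Without control replicate 1 the median was -0.14, with 11 members lower and 5 higher, beside 1099 and 1242 of all genes. Changes of at least 2-fold were called for 5 members, 16.1% of them, against 5.4% of all genes, and each of these 5 was a fall. The 3 treated values lay below all 3 controls for 12 members, 38.7% of them, against 32.6% of all genes, and above all 3 controls for 5 members, 16.1%, against 35.2% of all genes. For 15 of the 31 genes the change was smaller than the range of their own 3 controls.

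**Figure D2:**
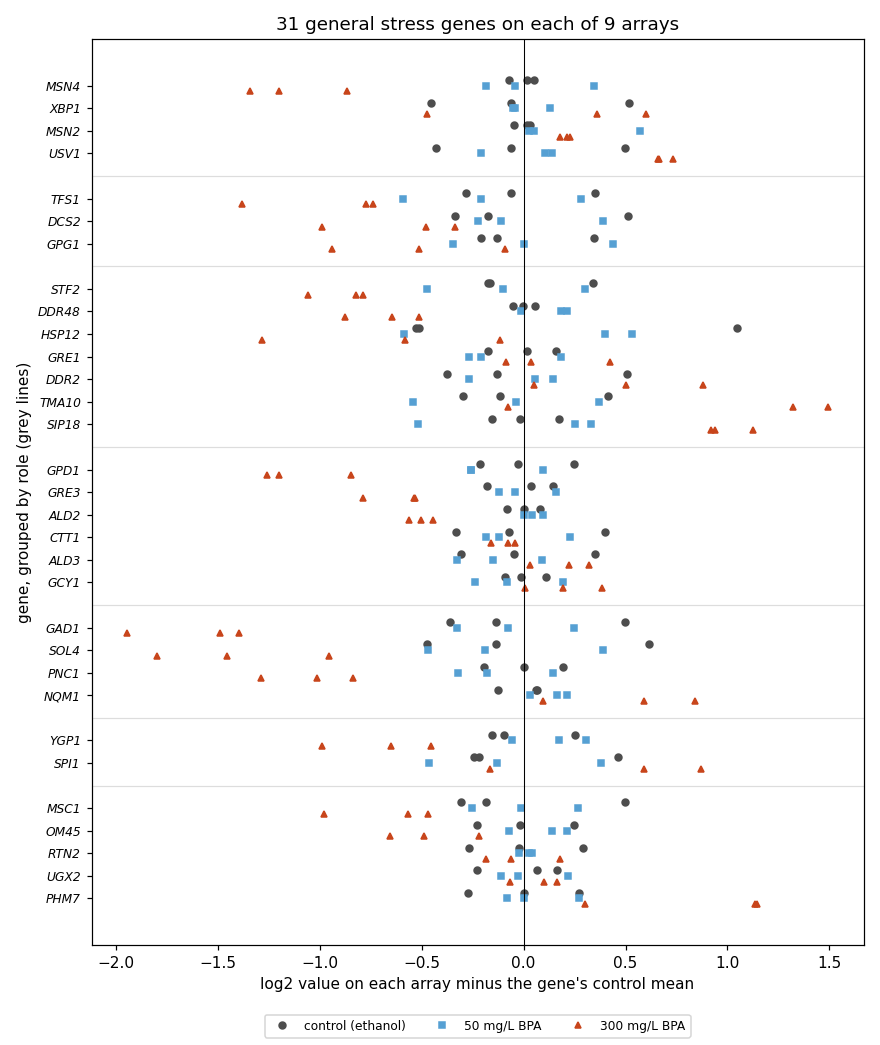
Value of each of the 31 genes on each array minus the gene's control mean (log2), grouped by role, with controls as circles, 50 mg/L as squares and 300 mg/L as triangles. Triangles lie left of all circles for 12 genes and right of all circles for 5, while no gene has all its squares on one side of its circles.

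The transcription factors split. MSN4 had 6.94, 6.81 and 7.28 in the 300 mg/L cultures, against 8.16, 8.20 and 8.08 in control cultures. The groups lay far apart, and the change of -1.14 ± 0.15 (SE) had an adjusted p of 0.000156, the smallest of any member. Its partner MSN2 had 8.62, 8.57 and 8.60 in the 300 mg/L cultures, against 8.34, 8.42 and 8.40 in control cultures. These groups did not overlap either, but the change of 0.21 ± 0.13 did not pass the test (adjusted p = 0.193), with a 95% interval from -0.07 to 0.49. That SE draws on the spread of all 9 arrays. The SD of MSN2 was 0.04 in controls, 0.31 at 50 mg/L and 0.02 at 300 mg/L. Fitted by limma with only these 2 groups, the rise had an SE of 0.05 and did pass (adjusted p = 0.00949). It also passed without 50 mg/L replicate 2 (adjusted p = 0.00573). The difference between the MSN4 and MSN2 values of one array was -1.67, -1.76 and -1.32 at 300 mg/L, against -0.18, -0.22 and -0.33 in controls. That shift of -1.34 had an exact permutation p of 0.1, two-sided, the smallest that 3 arrays against 3 allow, and 0.16 adjusted over the 8 pair comparisons made.

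USV1, a zinc finger factor of stress and of growth on poor carbon sources, had 6.49, 6.57 and 6.50 at 300 mg/L, against 6.33, 5.77 and 5.40 in controls. Its rise of 0.69 ± 0.19 (adjusted p = 0.0125) separated the groups, though control replicate 1 came close to the treated cultures. Without that array the change was 0.94. XBP1, a repressor of cyclin genes, had 5.63, 4.80 and 5.87 at 300 mg/L, against 5.79, 5.21 and 4.82 in controls, and these groups overlapped throughout (0.16 ± 0.28, adjusted p = 0.652).

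**Figure D3:**
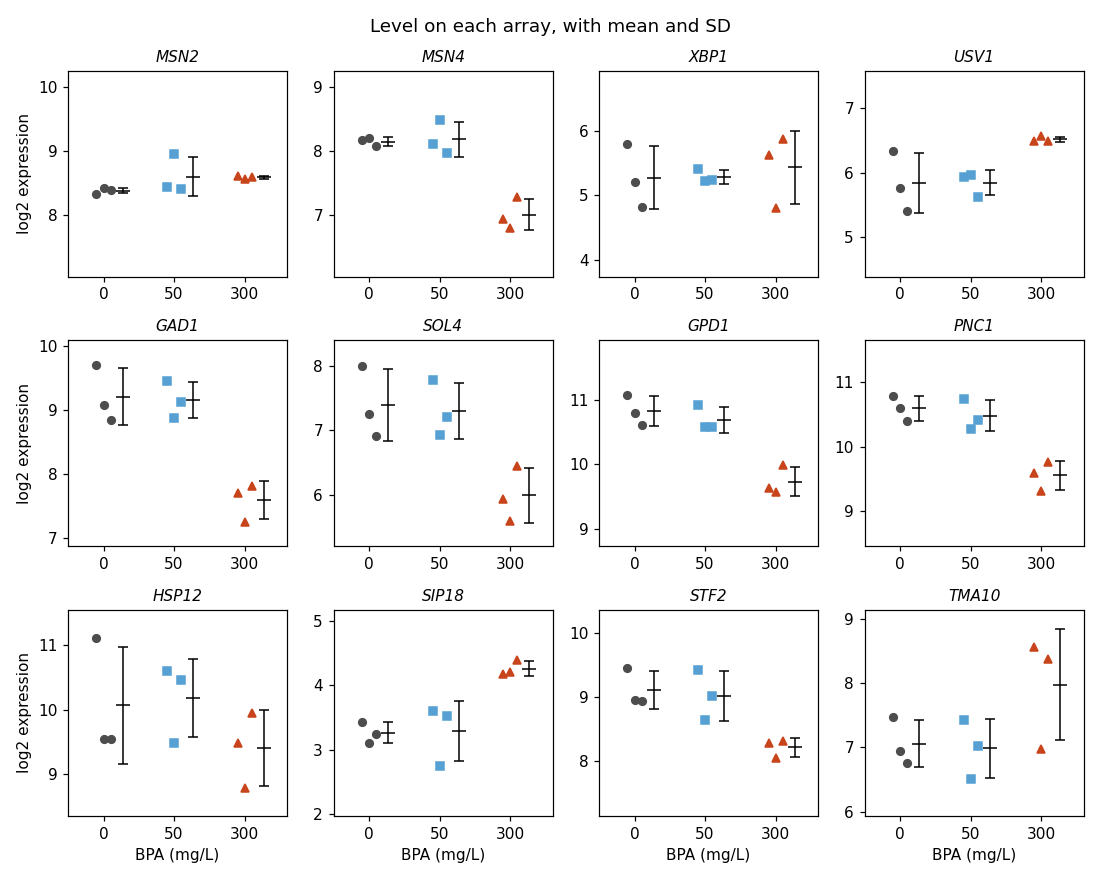
Log2 expression of 12 of the genes on each array by BPA dose (mg/L), with the mean and SD of 3 arrays beside the points; every panel spans the same number of log2 units. MSN4, GAD1, SOL4, GPD1, PNC1 and STF2 lie lower at 300 mg/L than in both other groups, SIP18 and USV1 lie higher.

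The metabolic enzymes outside redox held the deepest falls. GAD1, the glutamate decarboxylase that opens the GABA shunt, had 7.71, 7.26 and 7.81 in 300 mg/L cultures, against 9.70, 9.07 and 8.84 in control cultures. It was 3.06-fold lower (-1.61 ± 0.23, adjusted p = 0.000269), and every treated culture lay more than 1 log2 unit under the lowest control. SOL4, a 6-phosphogluconolactonase of the pentose phosphate pathway, had 5.94, 5.59 and 6.44 at 300 mg/L, against 8.003, 7.25 and 6.91 in controls. It was 2.65-fold lower (-1.40 ± 0.30, adjusted p = 0.00329), with wide spread in both groups. PNC1, the nicotinamidase of NAD salvage, had 9.58, 9.31 and 9.76 at 300 mg/L, against 10.79, 10.60 and 10.40 in controls, a 2.07-fold fall (adjusted p = 0.000287) with no overlap. NQM1, a transaldolase isozyme, was the exception. It had 5.94, 5.45 and 6.19 at 300 mg/L, against 5.41, 5.22 and 5.42 in controls, and its rise of 0.51 ± 0.16 (adjusted p = 0.0197) was lost without control replicate 2, without 300 mg/L replicate 1 or 3, and after repeated quantile normalization or centring on spike-ins.

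Of 6 enzymes that handle oxidants, aldehydes or glycerol, 3 fell and 0 rose. GPD1, the glycerol 3-phosphate dehydrogenase that osmotic stress induces, had 9.63, 9.58 and 9.99 in 300 mg/L cultures, against 11.08, 10.81 and 10.62 in control cultures. It was 2.15-fold lower (adjusted p = 0.000215), and the groups stood well apart. GRE3, an aldose reductase, fell by 0.62 ± 0.11 (adjusted p = 0.00106), with treated cultures between 8.87 and 9.13, against controls between 9.48 and 9.81. The cytosolic aldehyde dehydrogenase ALD2 had 6.95, 6.83 and 6.89 at 300 mg/L, against 7.48, 7.31 and 7.40 in controls, a narrow and clean separation (-0.50 ± 0.07, adjusted p = 0.000225). Its isozyme ALD3 had 5.19, 5.01 and 5.29 at 300 mg/L, against 5.32, 4.93 and 4.67 in controls, and did not pass (0.19 ± 0.16, adjusted p = 0.346). CTT1, the cytosolic catalase, had 6.37, 6.25 and 6.33 at 300 mg/L, against 6.81, 6.34 and 6.08 in controls. The treated values lay inside the control range, with a change of -0.09 and a 95% interval from -0.47 to 0.28. GCY1, a glycerol dehydrogenase, changed by 0.19 ± 0.12 and did not pass.

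Among the 7 protective proteins, 2 fell, 1 rose and 4 did not pass. STF2, a hydrophilin, had 8.29, 8.05 and 8.32 in 300 mg/L cultures, against 9.45, 8.95 and 8.94 in control cultures, 1.85-fold lower with no overlap (adjusted p = 0.00322). Its relative TMA10 had 8.55, 6.98 and 8.38 at 300 mg/L, against 7.47, 6.94 and 6.76 in controls. Replicates 1 and 3 at 300 mg/L were high and replicate 2 was at the control level, and the change of 0.91 ± 0.38 did not pass (adjusted p = 0.0676). Without 300 mg/L replicate 2 TMA10 was called higher, at 1.41 (adjusted p = 0.00225). The difference between STF2 and TMA10 within an array was -0.27, 1.07 and -0.05 at 300 mg/L, against 1.98, 2.01 and 2.18 in controls. This shift of -1.80 was the largest of the 4 pairs (exact p = 0.1, adjusted 0.16).

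SIP18, a hydrophilin of desiccation tolerance, had 4.18, 4.20 and 4.39 at 300 mg/L, against 3.44, 3.11 and 3.25 in controls. It was 1.99-fold higher (adjusted p = 0.00172), the largest rise of a member that passed, although it missed the threshold after repeated quantile normalization (0.40, adjusted p = 0.0703). GRE1, the related hydrophilin, had 4.47, 4.35 and 4.86 at 300 mg/L, against 4.60, 4.45 and 4.26 in controls. Its change of 0.12 ± 0.15 did not pass, and after repeated quantile normalization it was called lower, at -0.42 (adjusted p = 0.0187). DDR48, a gene induced by DNA damage and osmotic stress, had 10.58, 10.35 and 10.71 at 300 mg/L, against 11.28, 11.17 and 11.22 in controls, a fall of 0.68 ± 0.10 (adjusted p = 0.000338). HSP12 had 9.49, 8.78 and 9.95 at 300 mg/L, against 11.12, 9.54 and 9.55 in controls. Control replicate 1 alone stood more than 1 unit above every treated culture, and the change of -0.66 ± 0.45 did not pass (adjusted p = 0.244). Without that control array it was -0.14. DDR2, another small stress-induced protein, had 8.71, 8.26 and 9.08 at 300 mg/L, against 8.71, 7.83 and 8.07 in controls (0.48 ± 0.24, adjusted p = 0.123). It was called higher without control replicate 1, where the change was 0.73, and without 300 mg/L replicate 2, where it was 0.69.

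ALD3, ALD2, DDR48 and SIP18 lie close together on chromosome XIII in the R64 gene order. ALD3 and ALD2 are direct neighbours, 2 genes lie between ALD2 and DDR48, and 1 lies between DDR48 and SIP18. Within this stretch ALD2 and DDR48 fell, SIP18 rose and ALD3 did not pass.

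Of the 3 regulators of signalling and RNA decay, only TFS1 passed. TFS1, an inhibitor of carboxypeptidase Y and of the Ras regulator Ira2, had 8.33, 7.72 and 8.36 in 300 mg/L cultures, against 9.45, 9.04 and 8.82 in control cultures, 1.95-fold lower (adjusted p = 0.00741). DCS2, the stress-induced relative and inhibitor of the scavenger decapping enzyme Dcs1, had 7.66, 7.15 and 7.81 at 300 mg/L, against 8.65, 7.97 and 7.80 in controls. The highest treated culture just passed the lowest control, at a change of -0.60 ± 0.24 (adjusted p = 0.0594). GPG1, proposed to act with the G protein of glucose sensing, changed by -0.52 ± 0.24 (adjusted p = 0.0996).

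The cell wall genes differed too. YGP1, a secreted glycoprotein induced by nutrient limitation, had 10.42, 10.08 and 10.62 in 300 mg/L cultures, against 11.32, 10.92 and 10.97 in control cultures, a fall of 0.70 ± 0.15 (adjusted p = 0.00347) without overlap. SPI1, a wall protein anchored by a lipid and induced by weak acids, had 8.79, 8.03 and 9.07 at 300 mg/L, against 8.66, 7.98 and 7.95 in controls, and did not pass (0.43 ± 0.29, adjusted p = 0.239). Without 300 mg/L replicate 2 it was called higher, at 0.73 (adjusted p = 0.0456).

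Among the 5 genes for proteins of membranes, mitochondria or little known function, MSC1 and OM45 fell and PHM7 rose. PHM7, a gene of phosphate-regulated expression, had 6.54, 5.70 and 6.54 in 300 mg/L cultures, against 5.67, 5.40 and 5.13 in control cultures. Replicate 2 lay just above the highest control and the others far above it, for a rise of 0.86 ± 0.22 (adjusted p = 0.00796). MSC1, linked to meiotic recombination, fell by 0.67 ± 0.22 (adjusted p = 0.0234), and OM45, of the outer mitochondrial membrane, by 0.45 ± 0.14 (adjusted p = 0.0201). Both were lost without control replicate 1 (adjusted p = 0.0764 and 0.0803), and also without 300 mg/L replicate 2 (adjusted p = 0.0865 and 0.0755). OM45 was lost without 300 mg/L replicate 1 as well, and its groups overlapped, since the highest treated culture, at 7.60, exceeded the lowest control, at 7.59. The reticulon gene RTN2 (-0.02 ± 0.13) and UGX2 (0.07 ± 0.12), of unknown function, did not pass.

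The lower dose was compared with the same controls. At 50 mg/L, 0 of the 31 genes passed by limma, where 0% of all genes were called. No member reached an unadjusted p under 0.05, against 7.14% of all genes, and no member had groups without overlap, against 12.6% of all genes. The replicate number as a block also called 0 members, and array weights called 0 members and 31 other genes. The MSN4 value minus the MSN2 value of one array was -0.333, -0.469 and -0.454 at 50 mg/L, against -0.176, -0.221 and -0.327 in controls. These differences did not overlap, but their shift of -0.18 had the smallest exact permutation p that 3 arrays against 3 allow, 0.1, and 0.16 after adjustment. For the other 3 pairs the exact p at 50 mg/L ran from 0.4 to 0.8. The median change was 0.01, and single changes ran from -0.18 to 0.22. How tightly that bounds a response depended on the gene. The 95% interval ran from -0.11 to 0.20 for ALD2 and from -0.28 to 0.36 for MSN4, but from -0.89 to 1.12 for HSP12 and from -0.92 to 0.78 for TMA10.

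The smallest p among the members at 50 mg/L belonged to MSN2. It had 8.44, 8.96 and 8.42 in the 50 mg/L cultures, against 8.34, 8.42 and 8.40 in control cultures (0.22 ± 0.13, adjusted p = 0.581). Replicate 2 of the 50 mg/L group alone stood high, and the other cultures were at the control level. DDR48 had 11.44, 11.41 and 11.21 at 50 mg/L, against 11.28, 11.17 and 11.22 in controls (0.13 ± 0.10, adjusted p = 0.613). GPD1 had 10.93, 10.58 and 10.57 at 50 mg/L, against 11.08, 10.81 and 10.62 in controls (-0.14 ± 0.15, adjusted p = 0.702).

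The last comparison set 300 against 50 mg/L and so reuses the 300 mg/L arrays. Here 13 members were lower and 3 higher, and the 16 called are 51.6% of the members, against 52.8% of all genes. By direction, 41.9% of the members were called lower, against 25.3% of all genes, and 9.68% higher, against 27.5% of all genes. GAD1 changed by -1.56 ± 0.23, SOL4 by -1.31 ± 0.30, MSN4 by -1.18 ± 0.15 and GPD1 by -0.96 ± 0.15. SIP18 was higher by 0.97 ± 0.19, PHM7 by 0.80 ± 0.22 and USV1 by 0.68 ± 0.19. NQM1 did not pass here (0.37 ± 0.16, adjusted p = 0.0679). MSN2 had 8.62, 8.57 and 8.60 at 300 mg/L, against 8.44, 8.96 and 8.42 at 50 mg/L, a change of -0.01 ± 0.13. Leaving out replicate 2 of the 50 mg/L group turned this to 0.17, with an adjusted p of 0.0258.

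Genes upstream of Msn2 and Msn4 were called in both directions at 300 mg/L against control. The counts for these and the further lists below stand beside 27.5% of all genes called higher and 25.2% called lower. Of 14 measured genes of the Ras and protein kinase A pathway, which holds the programme down, 2 rose, 4 fell and 8 did not pass, with a median change of -0.02. TPK3, a catalytic subunit of the kinase, rose by 0.57 ± 0.09, and RAS1 by 0.28 ± 0.08. CYR1, the adenylate cyclase, fell by 0.48 ± 0.09, and PDE1, a phosphodiesterase of cyclic AMP, by 0.45 ± 0.06. Of 19 other regulators, 3 rose and 6 fell. SOK2, a transcription factor downstream of protein kinase A, rose by 1.16 ± 0.14, and SCH9, a kinase of nutrient signalling, by 0.54 ± 0.10, while the energy kinase SNF1 fell by 0.49 ± 0.09 and the kinase gene MRK1 by 0.41 ± 0.14.

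The osmotic stress branch, in which the kinase Hog1 raises glycerol synthesis, had 5 of 22 genes higher and 3 lower. The other 14 did not pass, where 52.7% of all genes were called. GPD2, the isozyme of GPD1, rose by 0.88 ± 0.11, and SSK22, a kinase of the cascade, by 0.60 ± 0.09. GPP2, a glycerol phosphatase that follows GPD1 in the pathway, fell by 0.87 ± 0.10, and the dihydroxyacetone kinase DAK1 by 0.50 ± 0.08. GPD1 and GPP2, which are known targets of this branch, were thus both lower, while STL1 (0.08 ± 0.11) and GPP1 (0.03 ± 0.09) of the list did not pass. In the GABA shunt and pentose phosphate list, beside GAD1 and SOL4, 3 of 11 rose and 2 fell. The pentose phosphate isomerase RKI1 rose by 0.91 ± 0.11 and the transketolase TKL2 by 0.55 ± 0.09, while the dehydrogenase GND1 fell by 0.50 ± 0.07 and the transketolase TKL1 by 0.46 ± 0.08.

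Isozymes and paralogues of the members also moved. Of 14 measured, 5 rose and 6 fell. CTA1, the peroxisomal catalase, rose by 3.31 ± 0.31 where CTT1 did not pass, and SPS100, a spore wall relative of YGP1, rose by 2.09 ± 0.15 where YGP1 fell. DCS1, the decapping enzyme that Dcs2 inhibits, fell by 0.95 ± 0.13, and the transaldolase TAL1 by 0.76 ± 0.06 where its isozyme NQM1 rose.

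Reserve carbohydrate, chaperone and ribosome assembly genes were set beside the members. Among 22 reserve carbohydrate genes 15 fell and 2 rose, with a median of -0.49 over all arrays, beside -0.45 for the members. Without control replicate 1 the median of the members was -0.14. The median of the reserve list was not taken in that setting, so how alike the lists are there is not shown. The glycogen phosphorylase GPH1 fell by 2.01 ± 0.22 and the glycogen synthase GSY1 by 1.58 ± 0.16, while the phosphatase regulator GAC1 rose by 2.05 ± 0.47 and the cyclin PCL10 by 0.44 ± 0.06. In the controls, 19 of these 22 genes were highest in replicate 1, as the members were. Among 16 stress chaperones 6 rose and 3 fell, with a median of 0.21. BTN2, which sorts misfolded proteins, rose by 3.41 ± 0.18 and SSA4, an inducible Hsp70, by 1.29 ± 0.28, and HSP26 fell by 1.20 ± 0.30 and SSE2 by 0.69 ± 0.13. Among 16 ribosome assembly genes, which fall when the stress programme is on, 12 rose and 0 fell, with a median of 0.45. IMP4 and NSR1 led these, at 2.01 ± 0.16 and 1.09 ± 0.13. At 50 mg/L against control, 0 genes of these 8 lists passed.

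**Figure D4:**
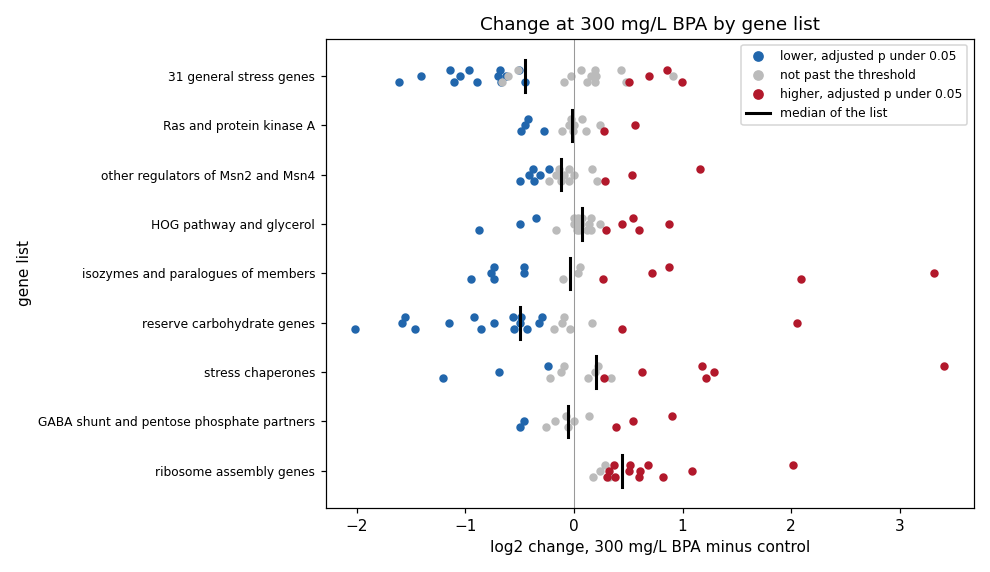
Log2 change at 300 mg/L BPA minus control for the 31 general stress genes and 8 further lists, with genes called lower in blue, called higher in red and not called in grey, and a black bar at each list's median. The 31 genes and the reserve carbohydrate genes have medians of -0.45 and -0.49, and the ribosome assembly genes lie to the right of 0, with a median of 0.45.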

How the data were processed

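The deposited values are on a log2 scale, with 1 per probe set on each array. The submitters' processing notes name RMA, affy and limma, with no versions or roles, and RMA corrects background, equalises probe intensities between arrays and summarises them. The arrays have 1 colour, and biotin-labelled RNA was made by in vitro transcription per the labels' protocols. No batch or hybridisation date was used here. Precision is limited by having 3 arrays per group.

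Of 10928 probe sets, the platform annotation names 1 gene for 7244 and several for 1, and 3683 are unnamed here. Gene identifiers matched 5498 to the R64 gene table, used for names and gene order. The probe set with the highest mean was kept for each of 5449 genes; 47 genes had several, and none was a member. The 31 members' probe sets have no suffix for shared sequence. A gene was above background on an array when it exceeded the 95th percentile of 1746 fission yeast probe sets.

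Changes were tested two-sided in R 4.3.3 with limma 3.58.1 over all 9 arrays, without a block, and p was adjusted by Benjamini-Hochberg across the 5449 genes, with calls at 0.05. The fits were tested on simulated data. Figures were drawn with matplotlib 3.10.9. The members and gene lists were chosen with earlier results of these data known. Values per array are given for MSN2, MSN4, the 8 largest called falls, all called rises, the 3 smallest p at 50 mg/L and the related pairs; the per-array values of CTT1, DDR2, HSP12, DCS2, SPI1 and XBP1 were added after the data were seen. For each list the rule names the 2 largest called rises and 2 largest called falls. HSP32 was not analysed here, and GSK3 is an alias of RIM11. A listed gene is not reported here.

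Deviations from group means correlated between same-numbered control and 50 mg/L arrays at 0.42, 0.19 and 0.28 over all genes, all over 0.1, so these numbers were taken to pair those groups. Between 300 mg/L and control arrays they ran from -0.34 to 0.09, and between 300 and 50 mg/L arrays from -0.26 to 0.16, so there the numbers were not taken as pairs. Some differently numbered arrays also passed 0.1. Replicate 2 at 50 mg/L had 0.18 with control replicate 3, and replicate 2 at 300 mg/L had 0.25 with it. Replicate 3 at 300 mg/L had 0.33 with control replicate 1 and 0.40 with 50 mg/L replicate 1. Over the members alone, same-numbered control and 50 mg/L arrays had 0.58, 0.66 and -0.07. A value over 0.1 therefore does not by itself mark a pair, and the pairing of control and 50 mg/L arrays is an assumption. Promoter and protein sequences were not analysed here, so the planned motif and identity counts were not made.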

Additional observations from a re-analysis of the deposited data

How the results depend on the processing

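At 300 mg/L against control, 13 of the 17 called genes stayed called in all 20 other settings, and 4 of the 14 others were called in none. The losses were MSC1, OM45, NQM1 and SIP18. The gains were DCS2 in 6 settings, DDR2 and TMA10 in 5, GPG1 in 4, MSN2 in 3, SPI1 in 2, and HSP12, GRE1, ALD3 and GCY1 in 1 each. Leaving out each array in turn gave 15 to 18 calls at 300 mg/L against control and 15 to 18 for 300 against 50 mg/L, with 0 throughout at 50 mg/L. Of all genes, 42.9% to 60.8% were called in the first of these comparisons and 44.2% to 55% in the second. The median change at 300 mg/L ran from -0.50 to -0.14. The value of -0.14 came without control replicate 1, and again without replicate 1 of both 50 mg/L and control, a setting chosen after seeing the data. At 50 mg/L the median ran from -0.14 without control replicate 3 to 0.16 without control replicate 1. Array weights, which stopped before converging, gave 22 member calls at 300 mg/L against control, 9 of them higher. They gave 26 for 300 against 50 mg/L, 11 of them higher. Of all genes they called 66.1% and 64.8%. They also turned MSN2 in the second comparison to 0.16, and the cause was not tested. Over the arrays left out in turn, MSN2 in that comparison ran from -0.10 without 50 mg/L replicate 3 to 0.17 without replicate 2. Repeated quantile normalization turned GRE1 to -0.42 against control and -0.38 against 50 mg/L. Centring on spike-ins moved the median gene by -0.11 at 50 mg/L. It gave 20 and 22 member calls at 300 mg/L, 4 and 6 of them higher, beside calls for 28.1% and 26% of all genes. There DCS2, GPG1, HSP12, TMA10 and NQM1 all had the same SE of 0.18, where the main fit gave HSP12 0.45 and NQM1 0.16. The gains of this setting, with the only one of HSP12, and its loss of NQM1 thus do not reflect each gene's own spread. With the replicate number as a block, 0 of the 31 genes were called at 50 mg/L. Among only the 6 control and 50 mg/L arrays the block called 0 members and 1 other gene, so blocking by replicate number changed no member's call there. The block gave 21 member calls for 300 mg/L against control, 6 of them higher, and 22 against 50 mg/L, 7 of them higher. Of all genes it called 52.6% and 53.3%. All 31 genes exceeded the background cut on every array, but not all by much. SIP18 had 2.75 in 50 mg/L replicate 2, where the cut was 2.18. Whether background shapes the changes of the dimmest members was not tested. The spread between 3 cultures limits the precision for all members.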
